A study of Mus musculus with 18 samples.

Results

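Leukocyte integrins and the selectin ligand PSGL-1 are the surface proteins with which a neutrophil slows down on a vessel wall, stops and crawls out into the tissue. Rolling is carried by selectins, which bind sugar chains on PSGL-1 and other glycoproteins, and firm arrest by integrins, which are pairs of an α and a β chain that switch from a bent to an extended form when the cell is activated. The leukocyte integrins use the β2 chain (Itgb2), the β1 chain (Itgb1) or the β7 chain (Itgb7), and the α chain sets the ligand. Here 8 genes were followed by their symbols, of 34896 gene rows in the expression table: the α chains Itgam (CD11b), Itgal (CD11a), Itgax (CD11c) and Itga4, the β chains Itgb2, Itgb1 and Itgb7, and Selplg, which encodes PSGL-1. All 8 were found.

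The cells were taken from the bone marrow of C57BL/6 mice of 6 to 12 weeks, and the labels give no treatment. RNA-seq covered wild type granulocyte-monocyte progenitors (GMP), pre-neutrophils (preNeu) and mature neutrophils (matNeu) with 3 libraries each, and gives TPM, a share of all transcripts in a library corrected for transcript length. ChIP-seq against CHD4, the ATPase of the NuRD remodeling complex, was done in wild type and Gfi1-/- GMPs, and ChIP-seq against H3K4me2, a histone mark of active and poised promoters and enhancers, in wild type GMP, preNeu and matNeu cells, with 1 library each. A list of ATAC-seq peaks was also used, as a single list, since both neutrophil stages had been given the same intervals and values, and which stage they describe cannot be told. The cell type was taken from the sample titles, because another label field names a different cell type for all 9 RNA-seq libraries, for the preNeu and matNeu samples of H3K4me2 and for those of ATAC-seq. The titles of the RNA-seq libraries were checked against markers, and those of H3K4me2 were not, so the stage of its peaks rests on the titles alone. Cd34 was at 469.9 ± 39.0 TPM in libraries titled GMP (SD, n = 3) and at 1.92 ± 0.402 TPM in those titled matNeu, whereas Cxcr2 was at 9.23 ± 2.30 TPM and 3468 ± 478 TPM. Ngp, a secondary granule gene, was highest in libraries titled preNeu, at 71395 TPM on average.

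The sort itself used 2 of the 8 genes. GMPs were recovered from marrow pooled over several bones as lineage negative, with an antibody against CD11b in the lineage cocktail, and then by cKIT, CD16/32 and CD34, while both neutrophil populations were taken as positive for MAC-1, the dimer of Itgam and Itgb2, so their levels against GMPs are given as a description with no test. PreNeu and matNeu cells were both MAC-1 positive and differed in the sort by cKIT, CXCR4, SiglecF and CXCR2. TPM keeps no read depth, and the depth of the libraries is unknown. The labels do not say that the 3 libraries of a cell type came from separate mice, so the p-values below measure the spread between these libraries, which may be technical. In bulk RNA, fewer cells with a transcript and less of it per cell cannot be told apart.

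The set of adhesion transcripts differed at each stage. PreNeu cells held large amounts of the MAC-1 chains and less Itgb7, Itga4 and Selplg than GMPs. In matNeu cells Selplg, Itgb7 and Itgal were far above the level of preNeu cells and of GMPs, Itgax transcripts were present in every library, and Itgb1 was lowest.

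The β2 integrins make up the group best known in neutrophils, where MAC-1 binds ICAM-1, complement fragments and fibrinogen and serves crawling and phagocytosis. Itgb2, the chain shared by the whole group (ENSMUSG00000000290, chr10:77530252-77565708, + strand, in coordinates of GRCm38 as for all genes here), was at 54.7, 35.4 and 44.9 TPM in the GMP libraries, at 970.2, 1052 and 1129 TPM in preNeu and at 1859, 1997 and 2048 TPM in matNeu. Itgam (ENSMUSG00000030786, chr7:128062640-128118491, + strand) was at 12.8, 17.9 and 13.02 TPM in GMPs, at 493, 538 and 642 TPM in preNeu and at 838, 837 and 899.9 TPM in matNeu. For both genes every preNeu library lay above every GMP library, and every matNeu library above every preNeu library. The mean TPM of Itgam was 38.2 times and that of Itgb2 23.3 times the GMP level in preNeu cells. Between the populations that share the MAC-1 gate, Itgam was 0.63 higher in matNeu on the log2(TPM + 1) scale (SE 0.149, limma adjusted p = 0.00357) and Itgb2 0.91 higher (SE 0.147, adjusted p = 0.000275). These were the smallest changes among the members called higher there. All log2 changes given here are differences on this scale from moderated tests with limma over 13061 genes, called at an adjusted p under 0.05, and they understate the change of low genes. An exact permutation test of 3 libraries against 3 cannot go below 0.1.

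The table carried the symbol Itgam on another row, whose gene model overlaps the exons of Itgam and has the name Gm49368 in GENCODE. It was listed at 0 in the 3 GMP libraries, at 24.0, 17.8 and 10.1 TPM in preNeu and at 69.5, 63.7 and 45.4 TPM in matNeu. This row held 3.13% of the summed TPM of both in preNeu and 6.51% in matNeu, and how reads were divided between overlapping models is not given in the sources used here. All values of Itgam above are those of its own row.

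Itgal encodes the α chain of LFA-1, which pairs with Itgb2 and binds ICAM-1 and ICAM-2 in the arrest of leukocytes (ENSMUSG00000030830, chr7:127296260-127335138, + strand). It was at 80.3, 69.3 and 76.2 TPM in GMPs, at 76.8, 85.8 and 85.4 TPM in preNeu and at 463, 468 and 543 TPM in matNeu. GMP and preNeu libraries overlapped, and all matNeu libraries lay far above them. The mean rose 5.94-fold from preNeu to matNeu (log2 change 2.55, SE 0.118, limma adjusted p = 2.12e-08). Between preNeu and GMP the difference was 0.13 (SE 0.118, adjusted p = 0.355). Under median-of-ratios and upper quartile scaling it became a call, at 0.66 (adjusted p = 0.000467) and 0.62 (adjusted p = 0.000813), and the adjusted p ranged from 0.000467 to 0.662 over all alternatives.

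Itgax encodes the α chain of CD11c/CD18, a complement receptor that is widely used as a marker of dendritic cells and is also found on other myeloid cells. It (ENSMUSG00000030789, chr7:128129547-128150657, + strand) was listed at 0 in all 3 GMP libraries, at 0.137, 0.479 and 1.32 TPM in preNeu and at 36.7, 27.7 and 49.0 TPM in matNeu. All matNeu libraries were above all others. Itgax passed the filter of 1 TPM in at least 3 libraries through its matNeu level, so no test is given, and no fold against GMPs. No 0 was found in any library for 12 housekeeping genes, of which the lowest value was 17.3 TPM for Hprt.

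Because the α chains share 1 β chain, their proportions were also set side by side, as shares of the summed TPM of Itgam, Itgal, Itgax and Itgad. In GMPs Itgal made up 86.0%, 79.4% and 84.6% of the sum and Itgam 13.7%, 20.6% and 14.4%. In preNeu the order was turned, with Itgam at 85.7%, 85.6% and 87.2% and Itgal at 13.4%, 13.6% and 11.6%. In matNeu cells Itgam was at 62.5%, 62.5% and 60.2% and Itgal at 34.5%, 34.9% and 36.4%, so that the LFA-1 chain held a larger share than in preNeu. The 3 cell types did not overlap in either share. CD11b was part of the sort, so the shares are set against those of GMPs as a description only. Itgax reached 2.69 ± 0.606% in matNeu (SD, n = 3) and Itgad 0.881 ± 0.172% in preNeu.

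The summed TPM of these α chains was 2.06 ± 0.381 times that of Itgb2 in GMPs, 0.614 ± 0.0328 times in preNeu and 0.707 ± 0.0315 times in matNeu. In other words, transcripts of α chains exceeded those of their β chain in all GMP libraries, and the reverse held in all neutrophil libraries.

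**Figure D1:**
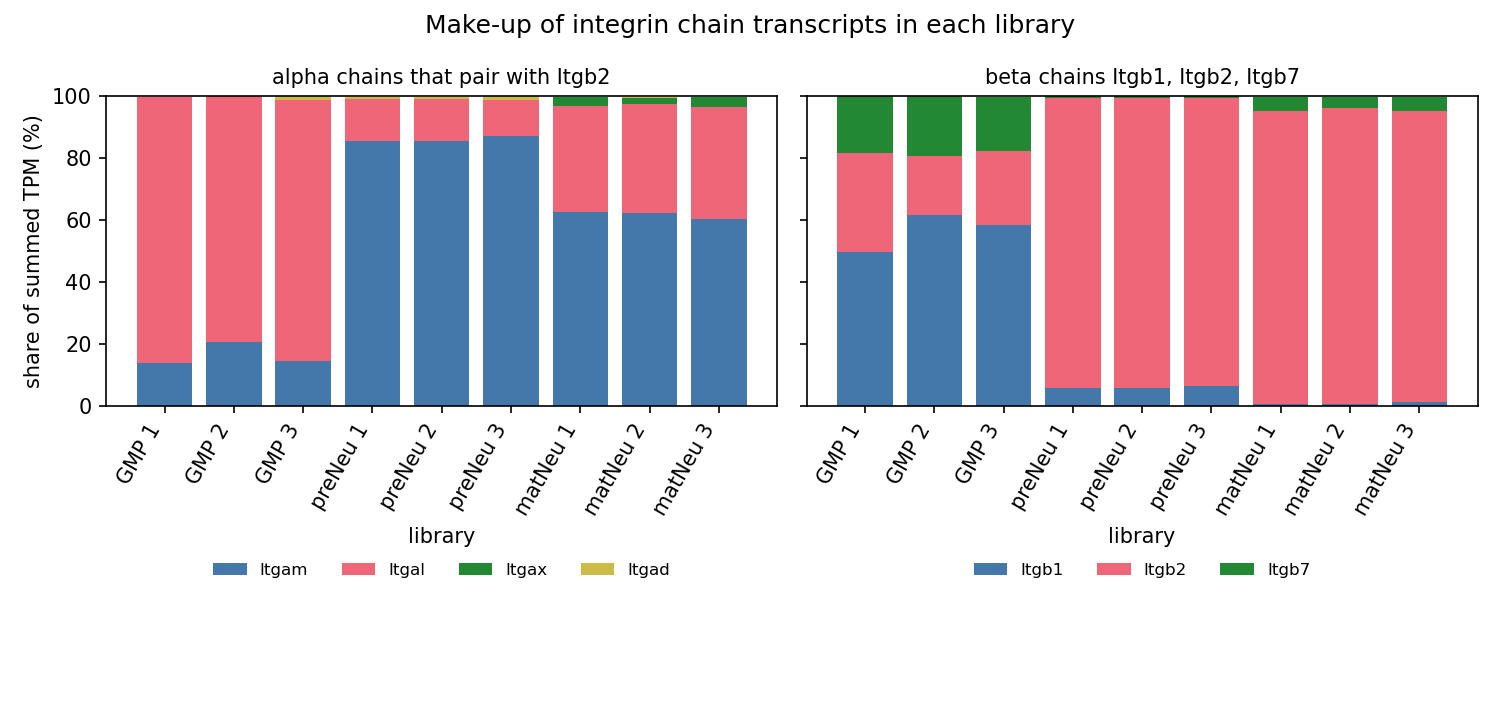
Share of each chain in the summed TPM of its group (%), for the 9 RNA-seq libraries on the x axis, with 1 stacked bar per library from 0 to 100%. On the left are the α chains that pair with Itgb2, where Itgal leads in GMPs and Itgam in preNeu and matNeu cells, and on the right Itgb1, Itgb2 and Itgb7, where Itgb1 is the largest share in GMPs and Itgb2 the largest in each neutrophil library.

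The remaining α chain, Itga4, pairs with Itgb1 in VLA-4, which binds VCAM-1 and fibronectin and holds progenitors in the marrow, and with Itgb7 in the gut homing integrin that binds MAdCAM-1. Itga4 (ENSMUSG00000027009, chr2:79255426-79333123, + strand) was at 62.0, 51.6 and 61.4 TPM in GMPs, at 13.3, 21.3 and 24.7 TPM in preNeu and at 54.8, 34.9 and 71.5 TPM in matNeu. All preNeu values were below those of both other cell types, and GMP and matNeu values overlapped. From GMP to preNeu it fell by 1.55 (SE 0.278, limma adjusted p = 0.00071) and from preNeu to matNeu it rose by 1.38 (SE 0.278, adjusted p = 0.00123).

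Between matNeu and GMP the difference of Itga4 was -0.17 (SE 0.278, adjusted p = 0.592). It turned to 0.82 (adjusted p = 0.0114) with median-of-ratios scaling, to 0.73 (adjusted p = 0.0228) with upper quartile scaling and to 0.11 (adjusted p = 0.721) without matNeu replicate 2, the library with the lowest value, and the adjusted p ranged from 0.0114 to 0.742 over all alternatives. No direction of Itga4 between these cell types is therefore given.

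Itgb1 and Itgb7, its alternative partners, moved in opposite ways between the neutrophil stages. Itgb1 (ENSMUSG00000025809, chr8:128685654-128733200, + strand) was at 85.3, 115 and 110.0 TPM in GMPs, at 58.0, 66.5 and 77.7 TPM in preNeu and at 11.3, 11.03 and 24.4 TPM in matNeu. The 3 cell types did not overlap, and matNeu replicate 3 was well above the other matNeu libraries. Itgb1 fell by 2.12 from preNeu to matNeu (SE 0.274, limma adjusted p = 5e-05) and by 2.73 from GMP to matNeu (SE 0.274, adjusted p = 3.95e-06). From GMP to preNeu the difference was -0.61 (SE 0.274, adjusted p = 0.0787). It passed the threshold in a fit of these 6 libraries alone (adjusted p = 0.00937), with a replicate block (adjusted p = 0.0375) and without matNeu replicate 3 (adjusted p = 0.00977), and the adjusted p ranged from 0.00937 to 0.822 over all alternatives.

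Itgb7 (ENSMUSG00000001281, chr15:102215995-102231944, − strand) was at 31.4, 35.8 and 33.3 TPM in GMPs, at 4.39, 6.99 and 6.23 TPM in preNeu and at 93.6, 79.1 and 104 TPM in matNeu. The cell types were clearly apart, with preNeu lowest and matNeu highest in every library. Itgb7 fell by 2.35 from GMP to preNeu (SE 0.192, limma adjusted p = 3.82e-06) and rose by 3.77 from preNeu to matNeu (SE 0.192, adjusted p = 4.13e-08), which left it 1.43 above GMPs (SE 0.192, adjusted p = 4.23e-05). Of the summed TPM of Itgb1 and Itgb7, Itgb7 made up 24.6 ± 1.98% in GMPs, 7.99 ± 1.33% in preNeu and 86.0 ± 4.35% in matNeu (SD, n = 3).

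Over the 3 β chains Itgb1, Itgb2 and Itgb7, Itgb1 was the largest share in GMPs with 49.8%, 61.8% and 58.4%, ahead of Itgb2 with 31.9%, 19.0% and 23.8%. Itgb2 took 94.0%, 93.5% and 93.1% in preNeu and 94.7%, 95.7% and 94.1% in matNeu. The rest of this sum was small at both neutrophil stages, with 5.98 ± 0.403% Itgb1 and 0.520 ± 0.0982% Itgb7 in preNeu and 0.743 ± 0.329% Itgb1 and 4.45 ± 0.571% Itgb7 in matNeu. Itgb3, which is not in the sum, was at 14.6 ± 3.63 TPM in preNeu and 22.0 ± 3.47 TPM in matNeu.

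Selplg encodes PSGL-1, the main ligand of P-selectin on leukocytes, which also binds E-selectin (ENSMUSG00000048163, chr5:113818536-113832644, − strand). It was at 639, 593 and 563 TPM in GMPs, at 144, 174 and 169 TPM in preNeu and at 3273, 3495 and 3897 TPM in matNeu. Every preNeu library was below every GMP library and every matNeu library above both. Selplg fell by 1.88 from GMP to preNeu (SE 0.112, limma adjusted p = 4.39e-07) and rose by 4.45 from preNeu to matNeu (SE 0.112, adjusted p = 5.76e-10), a 21.9-fold rise of the mean TPM and the largest of the 7 members compared there. In matNeu cells it was also 2.57 above GMPs (SE 0.112, adjusted p = 6.24e-09), and 99.8% of the tested genes were at or below its level.

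**Figure D2:**
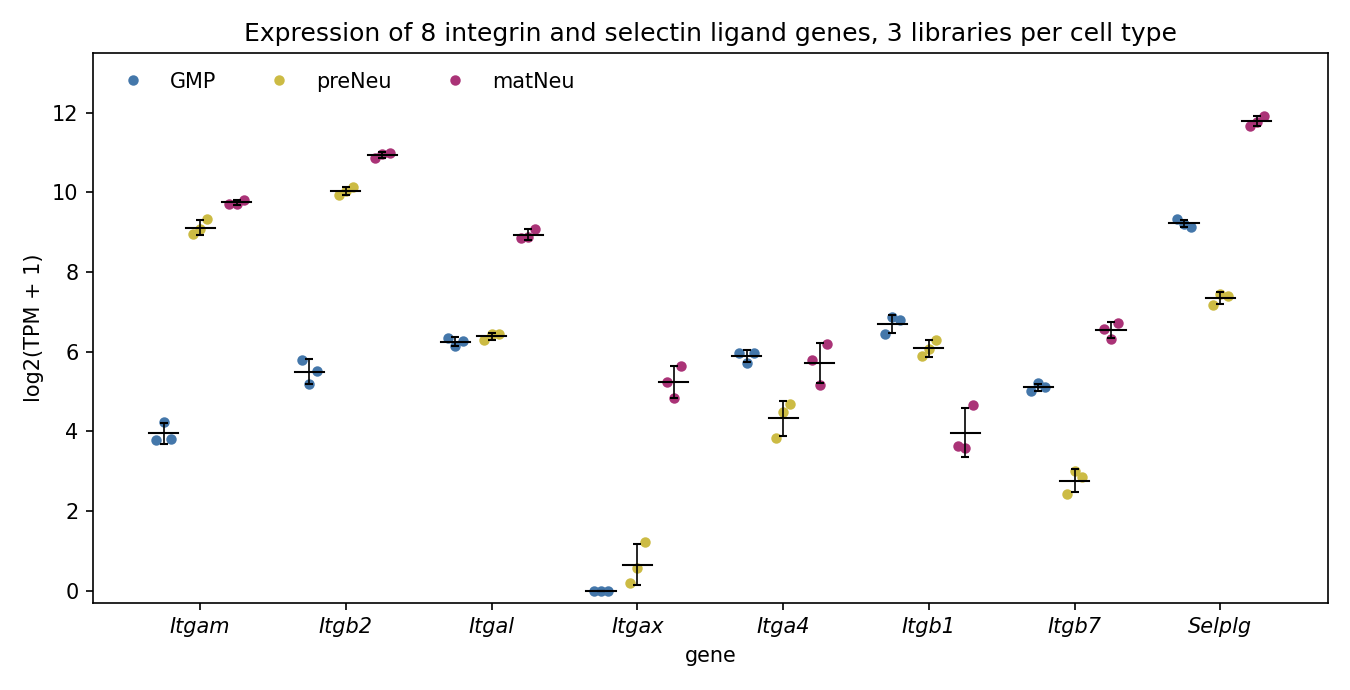
Level of the 8 genes as log2(TPM + 1) on the y axis in GMP, preNeu and matNeu libraries, with 1 point per library, the mean as a horizontal line and the SD as an error bar (n = 3). Selplg and Itgb7 are lowest in preNeu and highest in matNeu, Itgb1 is lowest in matNeu, and Itgax is listed at 0 in all GMP libraries.

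The order of the levels, which TPM allows since it corrects for length, differed between the cell types. In GMPs it ran Selplg, Itgb1, Itgal, Itga4, Itgb2, Itgb7, Itgam and Itgax, and the libraries of Itga4 and Itgb2 and of Itgb2 and Itgb7 overlapped. In preNeu it ran Itgb2, Itgam, Selplg, Itgal, Itgb1, Itga4, Itgb7 and Itgax, with overlap of Itgal and Itgb1. In matNeu it ran Selplg, Itgb2, Itgam, Itgal, Itgb7, Itga4, Itgax and Itgb1, with overlap of Itga4 and Itgax. All other neighbours in these orders did not overlap. Itgb2 and Itgam were at or above 99.4% and 98.5% of the tested genes in preNeu cells, and at or above 66.9% and 41.8% in GMPs.

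Counted over the members, 5 were open to a test against GMPs, after Itgam and Itgb2 as sort markers and Itgax were set aside. Between preNeu and GMP 0 of 5 were called higher and 3 lower (Itga4, Itgb7 and Selplg), where 14.7% of all tested genes were called higher and 44.3% lower. Between matNeu and GMP 3 of 5 were called higher (Itgal, Itgb7 and Selplg) and 1 lower (Itgb1), beside 22.8% and 54.1% of all genes. Between matNeu and preNeu 6 of 7 were called higher and only Itgb1 lower, beside 22.9% and 39.8% of all genes. These comparisons share libraries, so the counts are not independent of each other.

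The median log2 change of all tested genes was not 0 but -0.52 for preNeu against GMP, -0.92 for matNeu against GMP and -0.32 for matNeu against preNeu. Relative to these medians Selplg changed by -1.36, 3.49 and 4.76, Itgb7 by -1.83, 2.35 and 4.09, Itga4 by -1.03, 0.75 and 1.70, Itgal by 0.65, 3.61 and 2.87, and Itgb1 by -0.09, -1.81 and -1.81. The MAC-1 chains were 0.95 (Itgam) and 1.22 (Itgb2) above the median from preNeu to matNeu. So the difference of Itgb1 between preNeu and GMP, which was not called, was about that of the median gene. Its fall from preNeu to matNeu was larger than that of the median gene.

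Scaling to remove the shift changed the split of calls over all genes. From preNeu against GMP, 1925 genes were called higher and 5781 lower as deposited, 3072 and 3529 with median-of-ratios scaling, and 2960 and 3695 with upper quartile scaling. For matNeu against GMP the numbers were 2976 and 7065, then 4831 and 5182, then 4658 and 5350. For matNeu against preNeu they were 2995 and 5202, then 4265 and 4222, then 4149 and 4313.

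The genes nearest in pattern to each member were named by the root mean square difference of their centred log2 values over the 9 libraries. Itgal lay nearest to Hdc (0.0983), the histamine forming enzyme, then to Cfp (0.119), which encodes properdin, and Arap1 (0.143). Itgb2 lay nearest to Alox5 (0.245), the enzyme that starts leukotriene synthesis, and B430306N03Rik (0.2496), and Itgam to Ifnlr1 (0.219), B430306N03Rik (0.263) and Gsn (0.269). Selplg had Trpv2 (0.218), Abhd15 (0.237) and Pde7b (0.2495), and Itgb7 had Slc12a9 (0.190), 5430427O19Rik (0.190) and Ninj1 (0.275), all with their lowest mean in preNeu. For Itgax these were Tmem140 (0.257), Gcnt2 (0.277) and Csf3r (0.284), for Itga4 Gbp5 (0.203), Kdm3a (0.207) and Zfp263 (0.219), and for Itgb1 Zfp410 (0.165), Cep192 (0.182) and Trim35 (0.193).

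Of the other integrin subunits, 10 of 20 listed genes passed the filter. Of the 10, however, 4 (Itga1, Itga8, Itga9 and Itgb5) would not have passed without the cell type where they were highest, like 2222 of all 13061 tested genes. The filter favours a difference in such genes, so, once the values had been seen, they were left out of the counts of this and the next lists, which leaves 6 here, and no test of them is given. Of these 6, 3 were called higher and 3 lower in matNeu against GMP (median -0.92), 2 and 3 in preNeu against GMP (median -0.31), and 0 and 1 in matNeu against preNeu (median -0.10), beside 22.7% and 56.4%, 16.4% and 45.1%, and 22.9% and 45.8% of all genes kept in this way. Under both other scalings they were 3 and 3, 3 and 2, and 3 and 1. The shares of all genes kept were 37.4% and 40.9%, 26.8% and 26.3%, and 32.7% and 37.0% with median-of-ratios scaling, and with upper quartile scaling 35.9% and 42.2%, 25.7% and 27.7%, and 31.7% and 37.8%. Itga2b, the platelet integrin chain also found on early progenitors, went from 33.1 ± 3.41 to 2.996 ± 1.38 TPM (log2 change -3.14, limma adjusted p = 3.05e-06). Itga1, a collagen receptor chain, went from 20.98 ± 6.57 to 0.174 ± 0.127 TPM, and Itga5, the fibronectin receptor chain that pairs with Itgb1, from 31.9 ± 3.28 to 5.03 ± 0.855 TPM (-2.45, adjusted p = 3.82e-06). Itga2b and Itga5 were also called lower in preNeu against GMP. Itga8 was listed at 0 in the GMP libraries and reached 10.1 ± 1.61 TPM in matNeu. None of the called genes turned direction under the other scalings.

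Selectins and further ligand glycoproteins were called in both directions. Of 12 listed genes 9 passed the filter, and 7 are counted, since Sele and Emcn passed by their level in GMPs. Of these 7, 4 were called higher and 3 lower in matNeu against GMP (median 1.43), 2 and 2 in preNeu against GMP (median 0.11), and 3 and 2 in matNeu against preNeu (median -0.09), beside 22.7% and 56.4%, 16.4% and 45.1%, and 22.9% and 45.8% of all genes kept in this way. Under both other scalings they were 4 and 2, 4 and 1, and 3 and 1. Cd44, a hyaluronan receptor that also carries E-selectin ligands, was at 136 ± 8.98 TPM in GMPs, 249 ± 38.4 TPM in preNeu and 815 ± 105 TPM in matNeu (log2 change to GMP 2.57, limma adjusted p = 2.7e-08). Spn (CD43) was at 62.2 ± 1.32, 67.3 ± 4.44 and 6.20 ± 1.78 TPM and fell by 3.16 from GMP to matNeu (adjusted p = 6.76e-08). Selp, which encodes P-selectin, rose by 2.84 (adjusted p = 0.000216) to 36.9 ± 15.9 TPM. Cd34 was lower as a marker of the GMP sort. Glg1, called lower in matNeu against GMP, and Cd24a, called lower in matNeu against preNeu, turned direction under both other scalings.

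PSGL-1 binds P-selectin only when its sugar chains carry sialic acid and fucose and its tyrosines are sulfated. The enzymes for this did not move together. Of 19 listed enzymes and carriers 14 passed the filter. The 13 counted leave out St3gal6, which passed by its level in matNeu. Of these 13, 3 were called higher and 8 lower in matNeu against GMP (median -1.48), 3 and 8 in preNeu against GMP (median -0.78), and 3 and 5 in matNeu against preNeu (median 0.08), beside 22.7% and 56.4%, 16.4% and 45.1%, and 22.9% and 45.8% of all genes kept in this way. Under median-of-ratios scaling they were 5 and 6, 4 and 6, and 5 and 4, and under upper quartile scaling 5 and 7, 4 and 6, and 5 and 4. St3gal6, a sialyltransferase, was at 0.0906 ± 0.135 TPM in GMPs, 1.59 ± 0.691 TPM in preNeu and 366 ± 54.0 TPM in matNeu. Gcnt1, which starts the branched O-glycans on which these ligands are built, was at 24.1 ± 2.38, 2.77 ± 1.14 and 127 ± 7.06 TPM, a fall by 2.78 to preNeu (limma adjusted p = 4.94e-06) and a rise by 5.14 to matNeu (adjusted p = 2.09e-08). It thus had the same order of cell types as Selplg and Itgb7.

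C1galt1c1, the chaperone of the core synthase, fell from 218 ± 28.1 to 22.8 ± 3.24 TPM between GMP and matNeu (log2 change -3.20, limma adjusted p = 4.68e-08), and Galnt1, which starts O-glycans, from 37.9 ± 3.67 to 6.33 ± 2.24 TPM (-2.45, adjusted p = 5.29e-06). Fut7, the fucosyltransferase that completes sialyl Lewis x, was chosen after its values were seen. It was at 91.4 ± 4.12 TPM in GMPs, 25.3 ± 3.001 TPM in preNeu and 27.5 ± 2.21 TPM in matNeu. It fell by 1.82 to preNeu (adjusted p = 3.32e-06) and was not called between the neutrophil stages (0.12, adjusted p = 0.514). Slc35c1, the GDP-fucose transporter, was called lower in preNeu against GMP and turned direction under both other scalings.

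Genes that activate integrins and tie them to actin were called higher more often than lower. Talin and kindlin bind the β tail, and RAP1 with its effectors brings talin to the membrane. Of 32 listed genes 26 passed the filter, and 25 are counted, without Tln2. Of these 25, 16 were called higher and 3 lower in matNeu against GMP (median 1.06), 14 and 1 in preNeu against GMP (median 0.70), and 12 and 7 in matNeu against preNeu (median 0.40), beside 22.7% and 56.4%, 16.4% and 45.1%, and 22.9% and 45.8% of all genes kept in this way. Under median-of-ratios scaling they were 21 and 1, 20 and 1, and 14 and 4, and under upper quartile scaling 21 and 2, 20 and 1, and 14 and 5. Fyb, the adaptor ADAP, rose from 19.0 ± 3.42 to 495 ± 30.1 TPM between GMP and matNeu (log2 change 4.65, limma adjusted p = 9.51e-10). Zyx, a focal adhesion protein, rose from 109 ± 11.5 to 1898 ± 244 TPM (4.11, adjusted p = 6.58e-10), and Actn1, an actin crosslinker, from 4.46 ± 1.87 to 90.4 ± 12.3 TPM (4.12, adjusted p = 1.14e-07). Rap1gap2, which turns RAP1 off, rose by 4.46 to 44.1 ± 5.66 TPM (adjusted p = 1.21e-08). Parvg, called lower in matNeu against GMP, and Fermt3 (kindlin-3), called lower in matNeu against preNeu, turned direction under both other scalings.

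The kinases and adaptors that carry the signal from ligated integrins into the cell were also called higher more often than lower. Of 23 listed genes 21 passed, and 20 are counted, since Vav2 passed by its level in GMPs. Of these 20, 16 were called higher and 2 lower in matNeu against GMP (median 1.65), 12 and 3 in preNeu against GMP (median 0.74), and 15 and 1 in matNeu against preNeu (median 1.19), beside 22.7% and 56.4%, 16.4% and 45.1%, and 22.9% and 45.8% of all genes kept in this way. Under median-of-ratios scaling they were 19 and 0, 13 and 0, and 18 and 0, and under upper quartile scaling 19 and 0, 13 and 0, and 17 and 0. The SRC family kinase Fgr was at 0.804 ± 0.152 TPM in GMPs, 243 ± 23.3 TPM in preNeu and 803 ± 25.3 TPM in matNeu (log2 change to GMP 8.80, limma adjusted p = 1.39e-11). Tyrobp (DAP12), an adaptor of β2 integrin signals, rose by 3.78 to 3325 ± 1081 TPM (adjusted p = 3.79e-08) and Ptprc, the phosphatase CD45, by 3.51 to 1468 ± 192 TPM (adjusted p = 4.4e-09). Btk and Vav1, called lower in matNeu against GMP, turned under both other scalings, as did Vav1 in matNeu against preNeu. Pik3cd, called lower in preNeu against GMP, turned with median-of-ratios scaling.

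Counter-receptors and junction molecules were called in both directions. Of 18 listed genes 13 passed, and 11 are counted, since Icam4 and Cd99l2 passed by their level in GMPs. Of these 11, 2 were called higher and 6 lower in matNeu against GMP (median -0.82), 4 and 5 in preNeu against GMP (median -0.48), and 2 and 4 in matNeu against preNeu (median 0.32), beside 22.7% and 56.4%, 16.4% and 45.1%, and 22.9% and 45.8% of all genes kept in this way. Under both other scalings they were 4 and 3, 4 and 5, and 6 and 4. Thbs1, the matrix protein thrombospondin, rose from 1.18 ± 1.27 to 241 ± 86.0 TPM (log2 change 6.92, limma adjusted p = 1.34e-07). Pecam1 (CD31) fell from 82.2 ± 6.12 to 9.59 ± 4.30 TPM (-3.07, adjusted p = 7.72e-06) and Cd99l2 from 9.89 ± 1.72 to 0.364 ± 0.371 TPM. Icam4 was at 5.99 ± 2.41 TPM in GMPs and listed at 0 in matNeu. Cd47, called lower in matNeu against GMP, turned under both other scalings and Icam1 with median-of-ratios scaling.

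Several members are also expressed by cells that a sort can carry along, such as Itga4 and Itgb7 in B cells, mast cells and eosinophils, Itgal in lymphocytes and Itgax in dendritic cells. B cell markers (8 genes, Cd79b the most abundant) summed to 96.1, 81.7 and 90.4 TPM in GMPs, to 29.1, 50.5 and 48.9 TPM in preNeu and to 63.1, 78.0 and 138 TPM in matNeu, with Pax5 and Ebf1 among those at 0 in all GMP libraries and none of the 8 at 0 in all matNeu libraries. The highest sum among matNeu libraries was in replicate 3, which also had the highest value of the 3 for all 8 members. Without it the same numbers of members were called higher and lower in matNeu against both other cell types. The part of B cells in these values was not tested.

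Dendritic cell markers (10 genes) summed to 112, 91.9 and 106 TPM in GMPs, where Bst2 led, to 186, 205 and 164 TPM in preNeu and to 136, 192 and 217 TPM in matNeu, where Cd74 led at both stages. The sum hides opposite courses. From preNeu to matNeu Siglech went from 0.341 ± 0.235 to 8.84 ± 2.56 TPM. Cd209a, at 0 in all GMP libraries, went from 0.149 ± 0.258 to 2.72 ± 0.267 TPM, as Itgax did. Like Itgax, both passed the filter only by their level in matNeu, which favours a rise, so no test of them is given. Bst2 rose by 1.03 (limma adjusted p = 0.00706), while H2-Aa fell by 0.85 (adjusted p = 0.0177). Without Siglech and Cd209a, 6 dendritic cell markers are counted. Of these 6, 1 was called higher and 1 lower in matNeu against preNeu, beside 22.9% and 45.8% of all genes kept in this way. Under both other scalings they were 2 and 0. Monocyte and macrophage markers (12 genes, Ly6c2 the most abundant) summed to 4845, 4025 and 4453 TPM in GMPs, 2281, 1902 and 1759 TPM in preNeu and 1373, 1510.4 and 1154 TPM in matNeu, with none at 0 throughout a cell type. Unlike the sum, Csf1r rose from 13.8 ± 7.48 TPM in preNeu to 304 ± 48.6 TPM in matNeu (log2 change 4.47, adjusted p = 2.37e-07) and Adgre1 from 11.4 ± 3.46 to 83.8 ± 11.5 TPM (2.81, adjusted p = 2.21e-06), as Itgax did. The part of dendritic cells, monocytes and macrophages in the values of Itgax was not tested.

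T and NK cell markers (10 genes) summed to 465, 559.7 and 617 TPM in GMPs and 254, 230.2 and 218 TPM in preNeu, most of it Nkg7, and to 17.9, 23.4 and 20.5 TPM in matNeu, where Cd3d led. Nkg7 set the course of the sum, while Cd3d was at 1.96 ± 1.08 TPM in preNeu and 9.99 ± 3.79 TPM in matNeu and Cd2 at 0.721 ± 0.245 and 2.999 ± 1.10 TPM, and Cd3d was called higher (limma adjusted p = 0.000775). The part of T and NK cells in the values of Itgal was not tested. Cd3e, Cd2, Gzma and Ncr1 were at 0 in all GMP libraries and Klrb1c and Ncr1 in all preNeu libraries. Eosinophil markers (5 genes) summed to 904, 1101 and 852 TPM in GMPs with Prg2 in the lead, 42.2, 38.8 and 50.7 TPM in preNeu and 50.0, 35.9 and 54.1 TPM in matNeu with Siglecf in the lead, and Epx was at 0 in all matNeu libraries. The flat sum between the neutrophil stages covers opposite courses. Siglecf was at 19.5 ± 4.41 TPM in preNeu and higher, at 41.7 ± 9.28 TPM, in matNeu, as were Itga4 and Itgb7. SiglecF was part of the sort, and a gating legend of the paper gives matNeu cells as Siglec negative. The level of Siglecf between these stages is therefore a description with no test. Prg2 fell from 16.1 ± 1.69 to 0.211 ± 0.203 TPM (-3.82, limma adjusted p = 3.36e-08). Of the 5 genes, 2 were called lower there, and the only call of higher was that of Siglecf, which is not read as a result.

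Basophil and mast cell markers (6 genes) summed to 722, 565 and 618 TPM in GMPs with Cpa3 in the lead, to 496, 313 and 395 TPM in preNeu and to 2.54, 15.1 and 5.38 TPM in matNeu with Prss34 in the lead. The part of these cells and of eosinophils in the values of Itga4 and Itgb7 was not tested. Erythroid markers (9 genes) stayed between 8.15 and 36.3 TPM in all 9 libraries, with Klf1 in the lead in GMPs and Hba-a2 in both neutrophil populations, and Hba-a1 and Hbb-bt at 0 in all GMP libraries. Megakaryocyte and platelet markers (6 genes) stayed between 5.24 and 17.5 TPM, led by Pf4 in GMPs, Gp1bb in preNeu, where Ppbp was at 0, and Gp9 in matNeu. The 10 neutrophil markers summed to 67.6, 85.2 and 69.8 TPM in GMPs with S100a8 in the lead, to 167924, 147464 and 138248 TPM in preNeu with Ngp in the lead, and to 80393, 69095 and 49166 TPM in matNeu, again led by S100a8. The GMP sort markers (4 genes, Fcgr3 the most abundant) summed to 1686, 1400.4 and 1457 TPM in GMPs, 739, 753 and 699 TPM in preNeu and 2942, 3532 and 2853 TPM in matNeu.

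CHD4 was then examined at the genes themselves. Peaks were counted over each gene and 10 kb on either side of it and a CHD4 peak of wild type GMPs was called kept when a peak of Gfi1-/- GMPs overlapped it. Of the 8 genes 6 had a CHD4 peak in wild type GMPs, beside 32.4% of 21938 protein-coding genes, and 3 had one in Gfi1-/- GMPs, beside 10.2%. The window of Itgam held 12 wild type peaks, that of Itga4 9, Itgax 7, Itgb2 6, Itgal 4 and Itgb1 2. Itgb7 and Selplg had none. Longer genes collect more peaks, but per 100 kb of window Itgax (17.0 peaks) and Itgam (15.8 peaks) were still reached by 1.77% and 2.03% of the protein-coding genes only. With 1 library per genotype and cell type, none of the comparisons of peaks has a replicate check, and a list with fewer reads holds fewer peaks.

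The peaks of wild type GMPs at these genes numbered 39, since 1 lay in the windows of both Itgam and Itgax. Of them 8 were kept (20.5%), beside 18.5% of all 35790 wild type peaks, so the share kept was near that of the whole list. In the other direction 11 peaks of Gfi1-/- GMPs lay at these genes, of which 10 overlapped a wild type peak, beside 99.0% of all 7316. All kept peaks were at Itgam (4), Itga4 (3) and Itgax (1). None was kept at Itgb2, Itgal or Itgb1, whose strongest peaks had fold enrichments of 12.4, 12.1 and 6.52. Strong peaks were kept more often over the whole list, with 92.9% in its top decile by fold enrichment and 20.7% in the decile that holds those of Itgb2 and Itgal. The shares of the deciles in which the 39 peaks lie would give 10.7 kept, beside the 8 found.

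The strongest peak at these genes lay over the start of Itgam, at chr7:128062216-128063810, with its summit in an intron 715 bp from the start, and had a fold enrichment of 44.5 in wild type and of 19.7 in Gfi1-/- GMPs, the higher of 2 peaks there. Fold enrichments are given as the peak caller wrote them and are ranked only within their list, where these stood at or above 98.7% and 97.6% of peaks. Further kept peaks of Itgam lay 9.41 and 3.35 kb upstream and 3.10 kb into the gene, with 27.9, 24.7 and 28.1 in wild type and 6.38, 11.9 and 8.88 in Gfi1-/- GMPs. Peaks at 6.30 and 5.38 kb upstream, with 19.2 and 16.5, were not kept.

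At Itga4, a peak over the promoter at chr2:79254529-79256537 had a fold enrichment of 41.5 in wild type and 16.2 in Gfi1-/- GMPs. It was flanked by kept peaks with summits 1.92 kb upstream (31.3 and 7.20) and 1.72 kb past the start, in a noncoding exon (37.2 and 12.3). In GMPs, where these peaks were measured, the transcript of Itga4 was at 58.3 ± 5.84 TPM and that of Itgam at 14.6 ± 2.90 TPM.

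Itgax, listed at 0 in GMPs, had 7 peaks of wild type GMPs and 1 of Gfi1-/- GMPs. Its strongest, at chr7:128133029-128134135 in the body of the gene with a summit 4.27 kb from the start, went from a fold enrichment of 31.0 to 3.65, which stood at or above only 3.36% of the Gfi1-/- list. This summit also lay at the promoter of another annotated transcript of Itgax, which starts inside the gene. The promoter peak at chr7:128128685-128129729, with a fold enrichment of 26.7, had no counterpart in Gfi1-/- GMPs, although 92.9% of the peaks in the top decile were kept.

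The single peak of Gfi1-/- GMPs without a wild type counterpart lay in an intron of Itga4 at chr2:79280977-79281238, 25.7 kb from the start and 10.5 kb from the nearest wild type peak. Its fold enrichment of 15.3 was at or above that of 94.7% of the Gfi1-/- list. Over the genome 71 of 7316 peaks of Gfi1-/- GMPs had no wild type counterpart, and 2 of these, this one included, had a fold enrichment at or above it. No H3K4me2 peak of any cell type overlapped it.

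Of the 39 CHD4 peaks at these genes 46.2% were overlapped by H3K4me2 in GMPs, 76.9% in preNeu and 76.9% in matNeu, beside 37.8%, 59.5% and 52.5% of all CHD4 peaks. The 5 CHD4 peaks inside Itgb2 all lay under H3K4me2 in both neutrophil populations, and 2 of them in GMPs.

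H3K4me2 itself covered the transcription start of 7 of 8 genes in GMPs, 7 in preNeu and 8 in matNeu, beside 49.7%, 55.2% and 52.8% of protein-coding genes. The gene without it in GMPs and preNeu was Itgax, which had a weak peak of 295 bp over its start in matNeu (−log10 q of 1.99). Starts here are those of the gene. At the promoter of the Itgax transcript that starts inside the gene, H3K4me2 peaks had a −log10 q of 13.3 in preNeu and 5.48 in matNeu. ATAC-seq peaks covered the starts of Itgb2, Itgal, Itga4 and Itgb1, or 4 of 8, beside 30.3%. When only peaks with −log10 q of 5 or more were kept, none of the 8 starts was covered in GMPs, 5 were in preNeu, where those of Itgb7 and Selplg were lost, and 6 in matNeu, where those of Itgax and Itgb7 were lost. The share of all protein-coding genes at this threshold is not given here. The GMP list was weaker, with a median fold enrichment of 2.89 beside 4.55 in preNeu and 3.78 in matNeu. These counts are therefore not read as a result about the 8 genes.

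At Itgb2 the mark spread over much of the gene. It covered 10.1% of the window in GMPs, 53.7% in preNeu and 60.4% in matNeu, and in matNeu a single peak ran for 26746 bp at chr10:77528520-77555265. Only 0.515% of protein-coding genes were covered as much or more in matNeu, and 23.6% in GMPs. At Itgam coverage went from 4.82% over 19.5% to 23.9%, with a domain of 12809 bp in preNeu and 14171 bp in matNeu that took in the start and the CHD4 summits up to 5.38 kb upstream of it.

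Selplg was covered in all cell types, by 35.5% in GMPs, 43.8% in preNeu and 59.9% in matNeu, which 1.21%, 3.11% and 0.542% of protein-coding genes matched or passed. Part of this lay in peaks on either side of the gene. Itgb7 was covered by 16.3%, 21.7% and 24.1%, and the peaks at the downstream end of its window, found in preNeu and matNeu, overlap the neighbouring genes Csad and Zfp740. Itgax went from 1.78% over 8.05% to 15.4%. Its value in GMPs comes from a single peak 29.2 kb from the start, which overlaps the neighbouring gene Itgad.

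Itgal was covered by 8.82%, 14.9% and 13.8%, Itga4 by 5.78%, 8.88% and 6.42% and Itgb1 by 4.49%, 7.61% and 4.40%. The lists themselves covered 49.8 Mb in GMPs, 97.9 Mb in preNeu and 80.4 Mb in matNeu, and the median coverage over protein-coding genes was 3.83%, 6.43% and 4.81%.

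**Figure D3:**
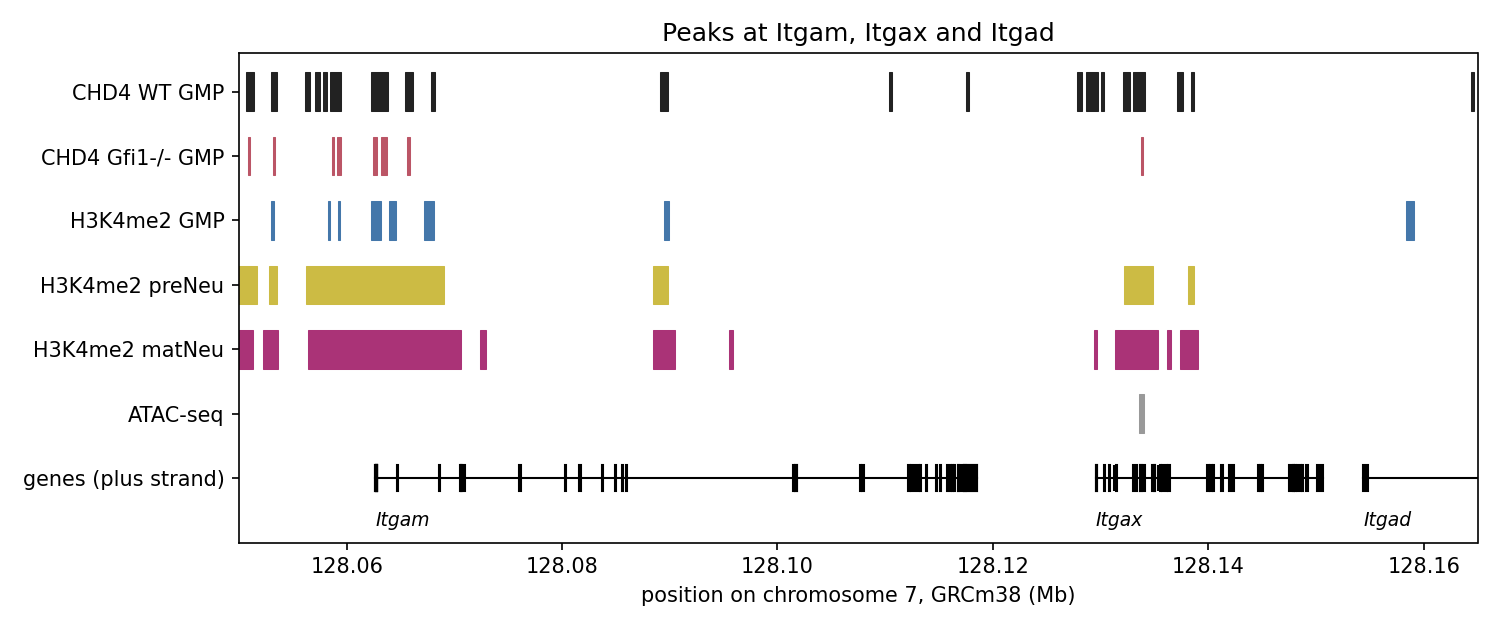
Peaks of CHD4 (wild type and Gfi1-/- GMPs), H3K4me2 (GMP, preNeu and matNeu) and ATAC-seq as bars along chromosome 7 of GRCm38 in Mb, above the gene models of Itgam, Itgax and the start of Itgad. The H3K4me2 peak over the start of Itgam is 12809 bp wide in preNeu and 14171 bp in matNeu. The start of the gene Itgax has only a weak one, in matNeu, which is lost at a −log10 q of 5, and stronger ones lie further inside the gene.

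The DNA under some of the CHD4 peaks is shown to let the binding be set beside its sequence. Windows of 200 bases around each summit were searched on both strands for 4 short motifs: AAATCA, the core bound by GFI1, GAGGAAGT for PU.1, TTGCNNAA for C/EBP factors and the RUNX core TGTGGT. They were found in 4, 7, 10 and 7 of the 39 windows at these genes (10.3%, 17.9%, 25.6% and 17.9%), beside 12.0%, 11.7%, 17.3% and 23.9% of 35728 windows over the whole list. A match is no evidence of binding, and a window without one is silent on the factor. The window with most matches was that of the kept Itgax peak in the gene body, at chr7:128133718-128133917 in an annotated exon, with 3 of GAGGAAGT and 1 of TTGCNNAA, and is not printed.

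The following windows of the + strand of GRCm38, read 5′ to 3′, hold no annotated exon, and capitals mark a motif in either orientation. They were picked by hand, and windows stronger than some of them are not printed, among these the kept peaks 1.92 kb upstream of Itga4 (fold enrichment 31.3) and 9.41 kb upstream of Itgam (27.9), both without a match. Those printed are the promoter peak of Itga4 (chr2:79254707-79254906, upstream, kept), the peak over the start of Itgam (chr7:128063255-128063454, intron, kept), the next kept peaks inside and upstream of Itgam (chr7:128065643-128065842, intron, and chr7:128059193-128059392, upstream), a peak upstream of Itgam that was not kept (chr7:128057160-128057359) and the promoter peak of Itgax that was not kept (chr7:128128852-128129051).
Itga4 promoter peak: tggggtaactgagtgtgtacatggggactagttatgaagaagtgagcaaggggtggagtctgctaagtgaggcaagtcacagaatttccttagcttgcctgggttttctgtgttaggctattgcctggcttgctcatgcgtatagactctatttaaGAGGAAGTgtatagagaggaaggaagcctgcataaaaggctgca
Itgam start peak: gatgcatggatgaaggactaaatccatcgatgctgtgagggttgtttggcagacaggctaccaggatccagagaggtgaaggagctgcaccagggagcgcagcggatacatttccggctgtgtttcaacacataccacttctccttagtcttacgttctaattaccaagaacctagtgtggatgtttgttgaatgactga
Itgam intron peak: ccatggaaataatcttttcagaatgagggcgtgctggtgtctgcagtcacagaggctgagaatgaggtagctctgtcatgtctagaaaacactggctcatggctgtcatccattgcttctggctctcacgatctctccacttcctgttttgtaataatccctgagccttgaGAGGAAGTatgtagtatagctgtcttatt
Itgam upstream peak, kept: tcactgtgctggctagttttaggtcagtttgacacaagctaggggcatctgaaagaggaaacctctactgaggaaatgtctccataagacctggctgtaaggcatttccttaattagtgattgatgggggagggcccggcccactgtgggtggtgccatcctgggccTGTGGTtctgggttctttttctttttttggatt
Itgam upstream peak, not kept: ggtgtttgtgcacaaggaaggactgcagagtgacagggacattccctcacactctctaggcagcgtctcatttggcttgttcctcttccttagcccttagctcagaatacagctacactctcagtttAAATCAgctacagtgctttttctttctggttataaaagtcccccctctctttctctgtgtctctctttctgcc
Itgax promoter peak, not kept: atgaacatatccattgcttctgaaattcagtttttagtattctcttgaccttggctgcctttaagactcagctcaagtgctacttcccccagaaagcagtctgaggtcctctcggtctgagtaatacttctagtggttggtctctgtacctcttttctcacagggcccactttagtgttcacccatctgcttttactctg

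Promoters of 250 bases up to the annotated start were taken from RefSeq (GRCm38.p6), where 5 of the 8 genes matched (Itgam, Itgax, Itga4, Itgb1 and Itgb7). The same motifs were found in 12.4% (AAATCA), 2.44% (GAGGAAGT), 9.56% (TTGCNNAA) and 14.0% (TGTGGT) of 32851 promoters, and in 1 of these 5, that of Itga4, by 1 match to TGTGGT in the opposite orientation. Those of Itgam (chr7:128062390-128062639, + strand) and Itga4 (chr2:79255176-79255425, + strand) both lie inside a kept CHD4 peak and an H3K4me2 peak of every cell type, and are shown because these peaks were the strongest of the group. Their GC content was 49.6% and 64%.
Itgam promoter: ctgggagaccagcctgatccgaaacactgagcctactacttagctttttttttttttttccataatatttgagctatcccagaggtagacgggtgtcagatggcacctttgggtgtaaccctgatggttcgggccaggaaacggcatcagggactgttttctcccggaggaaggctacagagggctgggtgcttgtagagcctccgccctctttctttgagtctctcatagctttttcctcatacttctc
Itga4 promoter: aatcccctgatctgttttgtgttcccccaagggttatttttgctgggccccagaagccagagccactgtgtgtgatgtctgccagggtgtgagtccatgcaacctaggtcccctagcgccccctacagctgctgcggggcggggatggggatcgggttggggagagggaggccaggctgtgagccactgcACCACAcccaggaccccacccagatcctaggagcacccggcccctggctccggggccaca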

How the data were processed

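Values of 9 RNA-seq libraries were TPM as deposited by the authors, each library summing to the same total, with no read depth. The submitters' processing notes name kallisto 0.44.0 and the extract protocol Tophat, HTSeq and DESeq, and which tool made the TPM is not given in the sources used here. Peak lists held the fold enrichment over local background as deposited by the authors, and a −log10 q per peak, also as deposited. For these the notes name BWA 0.7.17, Trimmomatic 0.36, FastQC 0.11.5, MultiQC 1.6, MACS2 2.1.0 and the build mm10, with no role or order. All columns of values were used (0 unused).

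Tests were run on log2(TPM + 1) for every gene that reached 1 TPM in 3 libraries or more, with limma 3.58.1 in R 4.3.3, with a trend in the variance and cell type as the only term, and p-values were adjusted over all tested genes (Benjamini-Hochberg, two-sided). Shares, peaks and motifs were computed with Python 3.11.15, numpy 2.4.6 and pandas 2.3.3, and plots with matplotlib 3.10.9. Peaks were assigned to a gene within 10 kb, and shared peaks overlap by at least 1 bp. Listed genes that would not have passed without the cell type where they were highest were marked after the values were seen and left out of the counts of the lists. The code was tested on simulated data.

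All 8 members were named in full. Of each list, the up to 4 called genes with the largest change in matNeu against GMP were named, and for each member the 3 tested genes nearest in pattern. A few genes that these rules name are not reported here. Members and lists were chosen with earlier results of these data known. Peak lists of H3K4me3 and GFI1 were not used, since some of their peaks lie on chromosomes the mouse does not have or beyond chromosome ends. The lists of other integrins, selectins and ligands, enzymes, activation genes, kinases, counter-receptors and cell type markers are those reported above. Alternatives were other pseudocounts, filters, scalings and fits, each library left out, and other windows, thresholds and overlaps of peaks.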

Additional observations from a re-analysis of the deposited data

How the results depend on the processing

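Each choice was changed on its own. Of 216 counts of calls under alternatives 208 kept their size within 1.5 times, of 306 tested log2 changes of members 298 kept direction and side of the threshold, and of 29 peak counts 24 stayed within 1.5 times. With median-of-ratios and upper quartile scaling, the genes called higher in preNeu against GMP numbered 3072 and 2960, those called lower 3529 and 3695, those called higher in matNeu against GMP 4831 and 4658, and the members called higher in preNeu against GMP 1 and 1 (Itgal). Itga4 in matNeu against GMP went to 0.82 and 0.73 under these scalings, and from -0.40 to 0.11 with 1 library left out, reversed without matNeu replicate 2. The cause was not tested. With a replicate block, Itgb1 in preNeu against GMP was called at -0.61 (limma adjusted p = 0.0375), and no other call of a member changed. Summing both rows of Itgam, an alternative chosen after seeing the data, changed no call. Without genes that would not have passed the filter without the cell type where they were highest, also chosen after seeing the data, selectins and their ligands called in matNeu against GMP went from 4 higher and 5 lower to 4 and 3.

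With 1 library left out, genes called higher and lower ranged from 1655 to 1952 and 4751 to 5907 in preNeu against GMP, 2598 to 2976 and 6394 to 7045 in matNeu against GMP, and 2538 to 2972 and 4802 to 5182 in matNeu against preNeu. Members called lower in preNeu against GMP ranged from 3 to 4. With windows of 20 kb, 13 CHD4 peaks were kept. Wider windows take in more peaks, and the share kept at this width is not given here, so this count is not read as a change in that share. With −log10 q of at least 5, H3K4me2 peaks at members numbered 3 in GMPs, 16 in preNeu and 16 in matNeu, and 0 starts were covered in GMPs. No share of all peaks or genes at this threshold is given beside them. The GMP list was weaker as a whole, so these counts are not read as a result about the members. An unknown read depth limits all comparisons between libraries and lists.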

Other observations

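The partners of Itga4 changed places between the neutrophil stages. The TPM of Itgb1 was 1.80 ± 0.427 times that of Itga4 in GMPs (SD, n = 3), 3.54 ± 0.702 times in preNeu and 0.288 ± 0.0714 times in matNeu. That of Itgb7 was 0.581 ± 0.0995, 0.304 ± 0.0444 and 1.81 ± 0.412 times that of Itga4. Itgb7 over Itgb1 was 0.0757, 0.105 and 0.0802 in the preNeu libraries and 8.25, 7.17 and 4.27 in the matNeu libraries, where the third was lowest.

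The ratio of Itgb2 to Itgam was 4.27, 1.97 and 3.45 in GMPs, 1.97, 1.95 and 1.76 in preNeu and 2.22, 2.38 and 2.28 in matNeu. It varied more among GMP libraries, where both transcripts were low, than among neutrophil libraries.

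Itgad, the least known α chain of the β2 group, was looked at after its values were seen. It was at 0.364 ± 0.462 TPM in GMPs, 5.74 ± 1.66 TPM in preNeu and 3.77 ± 2.74 TPM in matNeu, and its gene lies beside Itgax on chromosome 7. Fcgr3, an Fc receptor used in the GMP sort, was at 663 ± 127 TPM in GMPs, 466 ± 33.0 TPM in preNeu and 3056 ± 369 TPM in matNeu, and so was highest outside the cells it was used to select. These values were also chosen after they were seen.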
